A study of Homo sapiens with 6 samples.

Results

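The genes described here are 55 members of the DNA replication machinery and the E2F family, out of 56539 gene symbols named in the tables of all 6 libraries. They were chosen by name, with earlier results of these data known. Every row whose gene name, split at commas, contained a member was taken, and all 55 members were found. RNA was measured in LY19Y646F, lymphoma B cells that constitutively express the mutant histone methyltransferase EZH2-Y646F from a CMV promoter, and in LY19WT, which the labels give as EZH2 wild type. Both lines are immortalized, untreated and grown in the same serum-supplemented RPMI medium over the same range of passages, and each line has 3 libraries. Whether the mutant line is a clone or a pool is not given in the sources used here, and nothing says that the libraries came from separate cultures, so every p-value measures the spread between these libraries.

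Replication begins in G1, when the origin recognition complex, CDC6 and CDT1 load rings of MCM proteins onto DNA, a step known as licensing. Kinases then recruit CDC45 and GINS to form the active helicase, and polymerases copy the strands behind it with the help of the sliding clamp PCNA, its RFC loader and the single-strand binding protein RPA. Many of these genes are known targets of E2F factors, which are divided into activators (E2F1, E2F2, E2F3) and repressors (E2F4 to E2F8), with retinoblastoma-family pocket proteins bound to the activators and to E2F4 and E2F5. In lymphoma B cells, as in other dividing cells, the same genes are known to be used in each S phase.

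Values are FPKM, mapped fragments scaled to transcript length and to the library's total, as the authors deposited them per gene and library. Summed FPKM ran from 806102 to 1020940 per library, and the 10 highest rows held 27.5% of the total in LY19WT replicate 3 against 5.71% to 9.38% elsewhere. Absolute depth is unknown. Rough relative depths of the libraries ran from 1 to 1.13. The 95% interval of Cufflinks reached a median of 4.61% of the value to either side over 215 member values, and 106% at most. The SD over 3 libraries had a median of 13.1% of the mean. Log2 values across genes correlated at 0.866 to 0.926 within a line and at 0.733 to 0.773 between the lines. EZH2 itself had 70.2, 80.4 and 93.5 FPKM in LY19Y646F, against 60.6, 76.5 and 74.7 FPKM in LY19WT, so the lines overlapped. Its change was 0.20 on the log2 scale (SE 0.15, limma adjusted p = 0.38), and these gene totals do not separate mutant from normal transcripts.

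B-lineage markers summed to 587 to 940 FPKM in LY19Y646F and to 397 to 590 FPKM in LY19WT, with 7 of 7 markers averaging at least 1 FPKM in LY19Y646F and 6 of 7 in LY19WT. MS4A1, which encodes CD20, had 83.1 to 118 FPKM in LY19Y646F and was nearly absent from LY19WT at 0.0688 to 0.140 FPKM. EBF1, a B-cell transcription factor, ran the other way, at 4.89 to 5.61 FPKM in LY19Y646F and 42.5 to 44.6 FPKM in LY19WT. The 5 T-cell markers summed to 13.9 to 16.7 FPKM in LY19Y646F and 12.7 to 15.6 FPKM in LY19WT, where CD3D, CD3E, CD3G and CD2 were all listed at 0. The 5 myeloid markers summed to 0.374 to 0.723 FPKM in LY19Y646F and 11.4 to 13.9 FPKM in LY19WT, with MPO listed at 0 in LY19Y646F. LYZ alone made up most of the LY19WT sum, at 10.1 to 13.4 FPKM, and the other 4 were under 1 FPKM in every library. The 3 erythroid markers stayed at or under 0.0410 FPKM in LY19Y646F and 0.328 FPKM in LY19WT, and the 5 stromal or epithelial markers at or under 0.201 FPKM in LY19Y646F and 0.108 FPKM in LY19WT. The part of these marker differences in the results was not tested.

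Most of the replication genes that could be tested did not pass the test across all genes, and those that did went in both directions. Of the 37 members that could be tested, 5 were higher in LY19Y646F (E2F5, PCNA, GMNN, ORC5 and ORC3), 3 were lower (E2F7, E2F2 and E2F3) and 29 did not pass a limma adjusted p of 0.05. That is 21.6% of the tested members, below the 33.3% called among all 10705 tested genes, of which 16.7% were higher and 16.5% lower. With replicate number as a block, 6 members were higher and 5 lower, as MCM6, MCM10, RFC1 and ORC2 gained a call and E2F5 lost its own. The blocked fit called 3878 of all 10705 tested genes, 1917 higher and 1961 lower. The 3 libraries of each line did not overlap for 19 tested members, 11 of them higher and 8 lower in LY19Y646F. The same held for 48.6% of all tested genes, 24.5% higher and 24.2% lower. The median change of the tested members was 0.08 on the log2(FPKM + 1) scale, where low genes have their changes understated, against -0.03 for all tested genes. With quantile normalization these medians were -0.03 for the members and 0.05 for all tested genes. In bulk RNA, fewer cells in a given cell-cycle phase and less RNA per cell cannot be told apart.

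The other 18 members were left out of the test because of their rows, none because of a low level. Cufflinks assembled loci in each library separately, so 17 members had another protein-coding gene in their row in at least 1 library, and the row of RFC4, a clamp loader subunit, had failed in 2. Tested members averaged 6.91 to 453 FPKM over the 6 libraries, all above the minimum of 0.5 FPKM. Untested members are described beside their complexes.

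**Figure D1:**
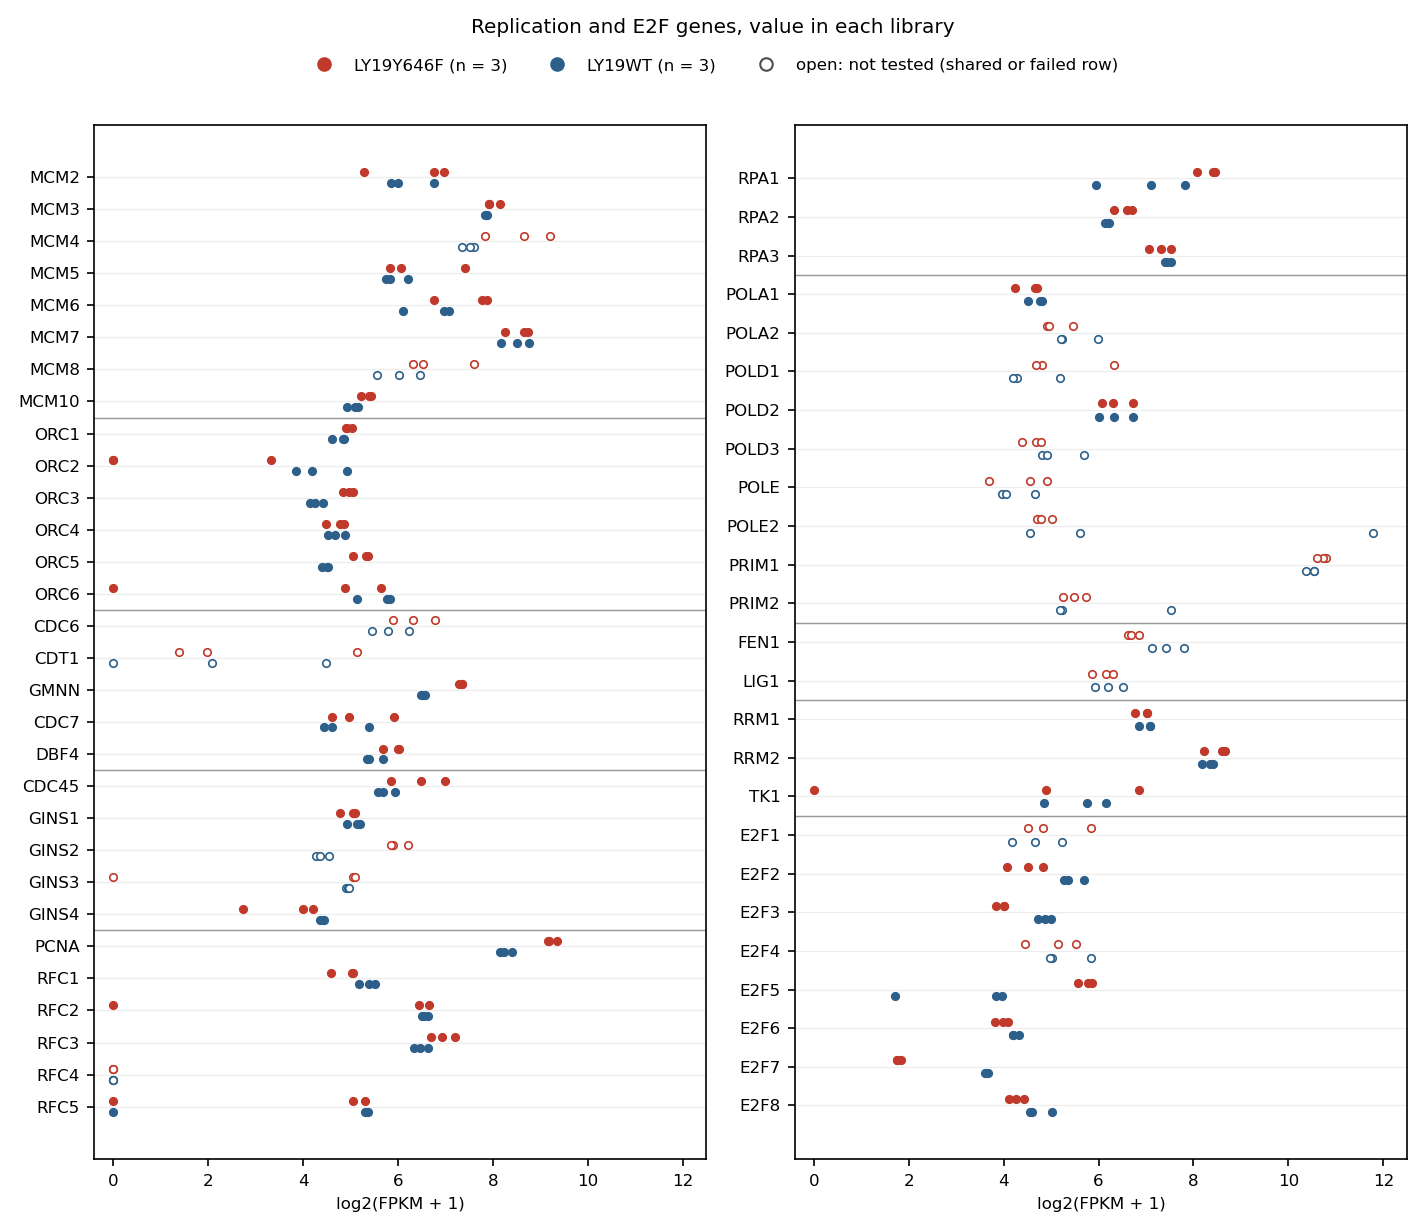
Level of each member in each library as log2(FPKM + 1) on the horizontal axis, with LY19Y646F libraries in red above and LY19WT libraries in blue below (3 each), and open circles for members that were not tested. PCNA, GMNN, E2F3 and E2F7 separate the lines without overlap, while ORC2, ORC6, RFC2, RFC5 and TK1 have libraries listed at 0.

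Promoter sequence is shown for the 5 called members whose start region holds an E2F motif, for GINS2, which was untested but well separated, and for E2F1 as a member whose libraries overlapped. E2F sites were chosen because they are how E2F factors are known to reach the replication genes. RefSeq (GRCh38.p14) windows from 250 bases before to 50 bases after each gene start were searched on both strands for TTTCCCGC, TTTCGCGC, TTTGCCGC and TTTGGCGC, and overlapping matches were each counted. In the stretches below, read 5′ to 3′ on the strand of the gene, capitals mark the match. The PCNA stretch is chr20:5126650-5126705 (minus strand), with the match starting 59 bases before the gene start. The GMNN stretch is chr6:24775309-24775364 (plus strand, 80 bases before), the ORC3 stretch is chr6:87590099-87590134 (plus strand, 12 bases before) and the GINS2 stretch is chr16:85688955-85689009 (minus strand, 31 bases before).
PCNA: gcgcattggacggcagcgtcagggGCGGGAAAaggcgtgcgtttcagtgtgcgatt
GMNN: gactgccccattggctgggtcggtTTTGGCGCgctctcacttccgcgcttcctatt
ORC3: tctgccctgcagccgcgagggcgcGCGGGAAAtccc
GINS2: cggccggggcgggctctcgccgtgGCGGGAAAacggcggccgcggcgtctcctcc
These 4 genes were higher in every LY19Y646F library than in any LY19WT library. The next stretches are from E2F genes themselves, which are known to carry E2F sites. The E2F2 stretch is chr1:23531244-23531299 (minus strand, 42 bases before), the E2F3 stretch is chr6:20401802-20401857 (plus strand, 53 bases before), and the E2F1 stretch is chr20:33686386-33686442 (minus strand, with matches 33 and 20 bases before).
E2F2: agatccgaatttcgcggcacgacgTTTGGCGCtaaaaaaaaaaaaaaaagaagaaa
E2F3: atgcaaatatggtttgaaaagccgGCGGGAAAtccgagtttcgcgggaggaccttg
E2F1: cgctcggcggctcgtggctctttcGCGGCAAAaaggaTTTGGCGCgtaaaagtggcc
E2F2 and E2F3 were lower in LY19Y646F, and the libraries of E2F1 overlapped. The same letters stood before genes that were higher, genes that were lower and a gene whose libraries overlapped. The genes shown were chosen by these outcomes, so the stretches cannot show whether a match goes with a direction.

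At least 1 match was present for 23 of the 47 members with a window (48.9%), against 3.99% of all 27305 genes with a window and 6.80% of the 5956 tested genes with one. By complex, matches were found for 5 of 6 MCM genes, 4 of 5 licensing and firing factors, 3 of 4 CDC45 and GINS genes, 4 of 8 polymerase and primase genes, 3 of 6 E2F genes, 2 of 6 clamp and clamp loader genes, 1 of 2 Okazaki fragment enzymes, 1 of 6 ORC genes, 0 of 1 RPA genes and 0 of 3 nucleotide supply genes. The table has no window for MCM4, MCM5, GINS4, RPA2, RPA3, POLD3, E2F5 and E2F8. By outcome, a match was found for 3 of 4 members called higher, 2 of 3 called lower, 8 of 24 tested without a call and 10 of 16 not tested. Among tested members whose lines did not overlap but which were not called, MCM3 and RFC3 held a match. MCM10, ORC1, ORC2, RFC1, RPA1 and E2F6, of the same kind, held none. A match is a string of letters and was not tested as a binding site.

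Of the 8 E2F factors 6 were tested and 4 passed: E2F5 was higher, E2F2, E2F3 and E2F7 were lower, and E2F6 and E2F8 did not pass the test. The share called was 66.7%, against 33.3% of all tested genes. The libraries of the lines overlapped for none of the 6, with 5 lower and 1 higher in LY19Y646F, against no overlap for 48.6% of all tested genes, and the median change was -0.69. With only 6 tested genes, this is a description of the family and not a comparison with other families.

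E2F7, an atypical repressor that binds DNA without a DP partner, had 2.55, 2.35 and 2.38 FPKM in LY19Y646F, against 11.2, 11.3 and 11.7 FPKM in LY19WT. The replicates of each line lay close together and far from those of the other line. E2F7 averaged 2.43 ± 0.107 FPKM in LY19Y646F and 11.4 ± 0.236 FPKM in LY19WT (SD, n = 3 each). It fell by 1.85 on the log2 scale (SE 0.10, limma adjusted p = 0.00014), and its rows span chr12:77415027-77459360 on hg19. E2F8, the other atypical repressor, had 16.2, 20.6 and 18.0 FPKM in LY19Y646F, against 22.5, 23.0 and 31.6 FPKM in LY19WT. All 3 LY19Y646F libraries were below all 3 LY19WT libraries, but the change of -0.46 had a limma adjusted p of 0.11.

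Of the activators, E2F3 had 13.4, 15.0 and 15.0 FPKM in LY19Y646F, against 25.5, 30.8 and 28.1 FPKM in LY19WT. The lines were well separated, and E2F3 (chr6:20402131-20493987, hg19) fell by 0.91 on the log2 scale (SE 0.12, limma adjusted p = 0.0029). E2F2 had 27.6, 15.7 and 21.7 FPKM in LY19Y646F, against 50.7, 37.5 and 39.7 FPKM in LY19WT. Every LY19Y646F library was below every LY19WT library, with more spread than for E2F3. E2F2 fell by 0.97 on the log2 scale (SE 0.24, limma adjusted p = 0.029), but the call was lost without any library other than LY19Y646F replicate 1, at limma adjusted p of 0.059 to 0.082. In LY19WT replicate 2 the E2F2 row also named the non-coding gene RP1-150O5.3. E2F1 was not tested, because it shared a row with NECAB3 in 1 library. It had 56.3, 27.3 and 21.9 FPKM in LY19Y646F, against 36.6, 24.2 and 17.2 FPKM in LY19WT, and the lines overlapped.

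E2F5, which acts largely as a repressor with pocket proteins, had 46.4, 56.7 and 53.6 FPKM in LY19Y646F, against 14.7, 13.3 and 2.28 FPKM in LY19WT. All LY19Y646F libraries lay above all LY19WT libraries, and LY19WT replicate 3 stood apart from its line. E2F5 averaged 52.3 ± 5.28 FPKM in LY19Y646F and 10.1 ± 6.79 FPKM in LY19WT (SD, n = 3 each). Its rows span chr8:86089460-86132654 on hg19, and it was 2.56 higher on the log2 scale (SE 0.64, limma adjusted p = 0.031). Without LY19WT replicate 3 the change was 1.83 (limma adjusted p = 0.0021). The call was lost with replicate number as a block (limma adjusted p = 0.056), without a filter on low values (0.052), without LY19WT replicate 2 (0.056), and without LY19Y646F replicate 1, 2 or 3 (0.071, 0.10 and 0.096).

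E2F4, the other factor that works mainly with pocket proteins, was not tested because it shared a row with TMEM208 in 1 library. Its values were 45.1, 20.8 and 34.2 FPKM in LY19Y646F, against 56.6, 31.6 and 30.4 FPKM in LY19WT, and the lines overlapped. The authors' deposited table gives E2F4 at 37.8 FPKM in LY19Y646F and 53.8 FPKM in LY19WT. E2F6, a repressor that does not need pocket proteins, had 13.1, 16.1 and 14.8 FPKM in LY19Y646F, against 17.2, 17.3 and 18.9 FPKM in LY19WT. The lines did not overlap, and the change of -0.27 had a limma adjusted p of 0.14. E2F5 had the highest mean level of the family in LY19Y646F and the lowest in LY19WT. In LY19Y646F its libraries overlapped with those of E2F1, next in order, and in LY19WT with those of E2F7. The LY19WT rank of E2F5 rested on replicate 3, as E2F7 was lower than E2F5 in LY19WT replicates 1 and 2. FPKM is per transcript length, so these levels can be set side by side.

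**Figure D2:**
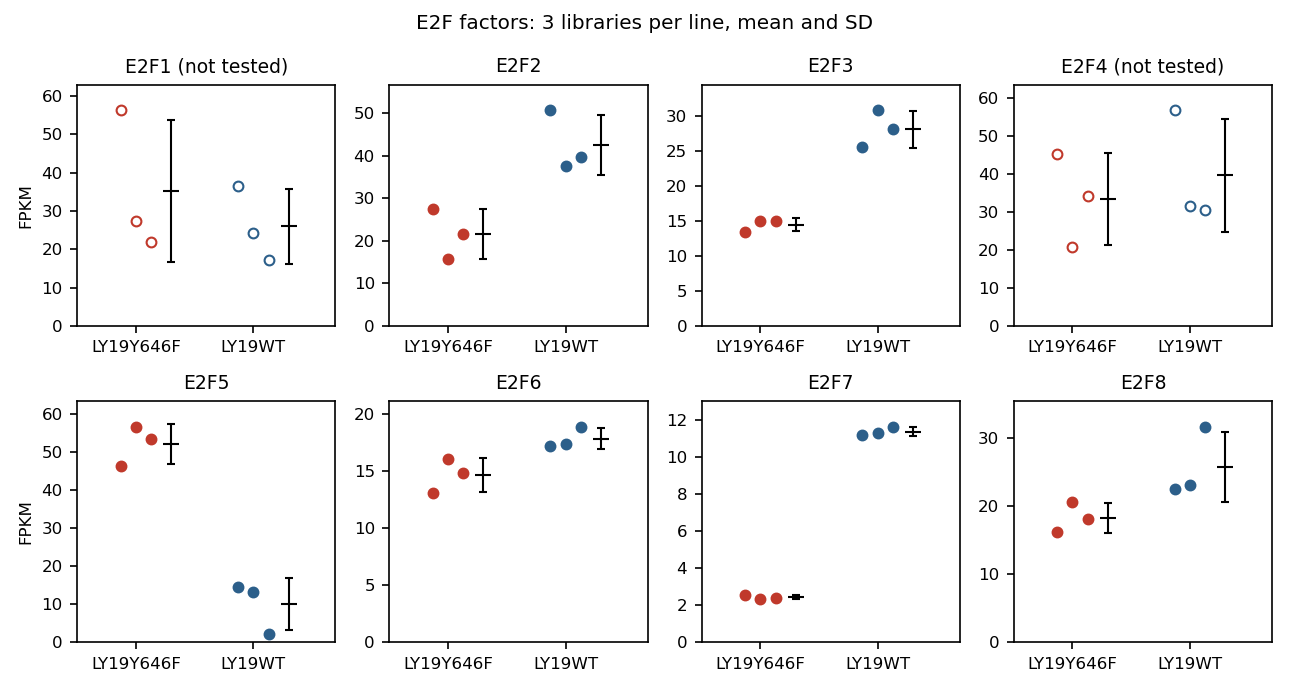
FPKM of the 8 E2F factors by library, with LY19Y646F (red) left of LY19WT (blue), 3 libraries each, beside the mean and SD as a bar; open circles mark factors that were not tested. E2F7 sits at 2.35 to 2.55 FPKM in LY19Y646F and 11.2 to 11.7 FPKM in LY19WT, and E2F5 at 46.4 to 56.7 FPKM in LY19Y646F and 2.28 to 14.7 FPKM in LY19WT.

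The origin recognition complex, which marks the sites where replication starts, had all 6 subunits tested, of which 2 were called and both were higher in LY19Y646F. That is 33.3% of the subunits, the same share as the 33.3% called among all tested genes. ORC5, an ATP-binding subunit, had 32.3, 40.0 and 38.8 FPKM in LY19Y646F, against 21.9, 20.0 and 21.7 FPKM in LY19WT. ORC3, another core subunit, had 30.2, 27.4 and 32.1 FPKM in LY19Y646F, against 16.6, 18.0 and 20.3 FPKM in LY19WT. For both subunits, every LY19Y646F library lay above every LY19WT library. ORC5 (chr7:103766788-103848495, hg19) was 0.77 higher on the log2 scale (SE 0.12, limma adjusted p = 0.0056), and ORC3 (chr6:88299839-88377169) was 0.68 higher (SE 0.12, limma adjusted p = 0.0096).

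ORC1, the subunit whose level is known to vary over the cell cycle, averaged 30.0 ± 1.34 FPKM in LY19Y646F and 26.3 ± 2.52 FPKM in LY19WT (SD, n = 3 each). Its change of 0.18 did not pass the test (limma adjusted p = 0.27). ORC4 averaged 25.2 ± 3.35 FPKM in LY19Y646F and 24.9 ± 3.20 FPKM in LY19WT (SD, n = 3 each), with overlapping libraries and a limma adjusted p of 0.96. ORC2 was listed at 0, 9.02 and 0 FPKM in LY19Y646F, against 13.5, 29.2 and 17.3 FPKM in LY19WT. The libraries did not overlap, and the limma adjusted p was 0.061, or 0.041 with replicate number as a block. In the authors' deposited table ORC2 stood at 21.8 FPKM in LY19Y646F and 44.7 FPKM in LY19WT. ORC6 was listed at 28.4, 48.6 and 0 FPKM in LY19Y646F, against 53.7, 55.6 and 33.9 FPKM in LY19WT, and the lines overlapped.

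A value of exactly 0 for a gene that the other libraries show well above 0 need not mean absence. Leaving out RFC4, which was listed at 0 throughout, there were 9 such listings in 7 members, and in 7 of the 9 the library had assembled rows without a gene name inside the interval of the gene. For ORC2 in LY19Y646F replicate 1 these were 9 rows with 9.37 FPKM in all, and only TK1 had a larger sum, at 11.2 FPKM. In LY19Y646F replicate 1 such rows held 1.85 FPKM for RFC2 and 1.63 FPKM for GINS3. The other libraries had 86.4 to 99.7 FPKM for RFC2 and 28.7 to 32.9 FPKM for GINS3. RFC5 had no such rows in either library listed at 0. Whether these rows hold the missing signal, and how often they lie inside other genes, was not tested. With such zeros set to missing where the line's other libraries averaged at least 5 FPKM, an alternative chosen after seeing the data, the ORC2 change was -1.0 (limma adjusted p = 0.24). Changes fitted for genes with a library listed at 0 rest on that value and are no bounds. Without LY19Y646F replicate 2, the 1 library of its line above 0, the ORC2 change passed (limma adjusted p = 0.0032).

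Of the 5 licensing and firing factors 3 were tested, and 1 was called (33.3%, against 33.3% of all tested genes). GMNN encodes geminin, the inhibitor that keeps CDT1 from loading MCM rings a second time in a cell cycle. It had 162, 156 and 163 FPKM in LY19Y646F, against 87.8, 92.2 and 93.5 FPKM in LY19WT. The replicates of each line were tight, at 160 ± 3.67 FPKM in LY19Y646F and 91.2 ± 3.0 FPKM in LY19WT (SD, n = 3 each). GMNN (chr6:24775159-24786327, hg19) was 0.81 higher on the log2 scale (SE 0.072, limma adjusted p = 0.00082).

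CDT1, the loading factor that geminin inhibits, was not tested because its row also named CTU2 in LY19Y646F replicate 1 and TRAPPC2L in LY19WT replicate 1. It was listed at 34.0, 1.60 and 2.94 FPKM in LY19Y646F, against 21.3, 3.25 and 0 FPKM in LY19WT. The highest value of each line is that of the shared row, and the rows of CDT1 alone lay between 0 and 3.25 FPKM in both lines. CDC6, which works with CDT1, shared a row with CASC3 and WIPF2 in LY19Y646F replicate 2. Its values were 58.3, 109 and 78.6 FPKM in LY19Y646F, against 54.5, 74.0 and 42.4 FPKM in LY19WT, and the lines overlapped.

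DBF4, the activator of the kinase CDC7 that switches licensed origins on, averaged 59.0 ± 7.44 FPKM in LY19Y646F and 43.7 ± 5.94 FPKM in LY19WT (SD, n = 3 each). Its change of 0.42 did not pass the test (limma adjusted p = 0.088), but passed without LY19Y646F replicate 1 (0.041). CDC7 averaged 37.6 ± 19.1 FPKM in LY19Y646F and 28.2 ± 10.9 FPKM in LY19WT (SD, n = 3 each), with a limma adjusted p of 0.57. The libraries overlapped for both genes.

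None of the 6 tested MCM genes passed the test, although all 6 changes were above 0 (median 0.22 on the log2 scale), with MCM2 and MCM7 below 0 under quantile normalization. MCM3, a subunit of the helicase ring, had 242, 241 and 284 FPKM in LY19Y646F, against 230, 232 and 225 FPKM in LY19WT. MCM10, which helps to activate the helicase, had 36.3, 41.0 and 42.0 FPKM in LY19Y646F, against 29.4, 33.0 and 34.7 FPKM in LY19WT. For these 2 genes the lines did not overlap. The change of MCM3 was 0.15 (limma adjusted p = 0.27), and that of MCM10 was 0.29 (limma adjusted p = 0.11, or 0.045 with replicate number as a block).

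MCM6 had 108, 234 and 218 FPKM in LY19Y646F, against 67.4, 124 and 133 FPKM in LY19WT. Replicate 1 was the lowest in both lines, and the lines overlapped. Its change of 0.76 had a limma adjusted p of 0.22, and of 0.011 with replicate number as a block. MCM5 had 169, 65.9 and 56.1 FPKM in LY19Y646F, against 73.0, 55.5 and 52.3 FPKM in LY19WT. Here replicate 1 was the highest in both lines, and the change of 0.51 had a limma adjusted p of 0.43. Without LY19Y646F replicate 1 the MCM5 change was 0.03.

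MCM2 had 107, 38.1 and 124 FPKM in LY19Y646F, against 107, 56.4 and 62.8 FPKM in LY19WT. MCM7 had 303, 427 and 404 FPKM in LY19Y646F, against 287, 429 and 362 FPKM in LY19WT. Both genes overlapped between the lines, with limma adjusted p of 0.87 and 0.81, and the sign of each changed under another scaling or without a library. In 4 libraries the MCM7 row also named the microRNA genes MIR25 or MIR93, which lie within it.

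MCM4 was not tested, because it shared a row with UBE2V2 in LY19Y646F replicates 1 and 3. It had 228, 401 and 590 FPKM in LY19Y646F, against 193, 181 and 162 FPKM in LY19WT, so the library without the shared row was also above all LY19WT libraries. The difference of 1.08 on the log2 scale had an exact permutation p of 0.10 (two-sided), the smallest that 3 against 3 libraries allow. MCM8, which works in recombination and not in the MCM2 to MCM7 ring, shared a row with CRLS1 in all 6 libraries. That row had 78.6, 91.6 and 193 FPKM in LY19Y646F, against 86.5, 63.7 and 46.2 FPKM in LY19WT, and the lines overlapped.

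CDC45 and the 4 GINS subunits join MCM to form the moving helicase, and none of the 3 tested genes passed. CDC45 had 126, 87.9 and 57.1 FPKM in LY19Y646F, against 59.9, 46.9 and 50.5 FPKM in LY19WT. The lines overlapped, and the change of 0.71 had a limma adjusted p of 0.14. Without LY19Y646F replicate 3 it was 1.00 (limma adjusted p = 0.034). GINS4 had 17.4, 14.9 and 5.63 FPKM in LY19Y646F, against 19.5, 20.4 and 20.6 FPKM in LY19WT. All LY19Y646F libraries were below all LY19WT libraries, with replicate 3 far below its line, and the change of -0.77 had a limma adjusted p of 0.22. Without that library the change was -0.31, and the authors' deposited table gives GINS4 at 48.0 FPKM in LY19Y646F and 54.1 FPKM in LY19WT, a difference of -0.17. GINS1 averaged 30.6 ± 3.57 FPKM in LY19Y646F and 33.2 ± 3.31 FPKM in LY19WT (SD, n = 3 each), with overlapping libraries.

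GINS2 was well separated but not tested, because its row also named C16orf74 in LY19Y646F replicates 1 and 2. It had 58.7, 72.5 and 56.9 FPKM in LY19Y646F, against 18.3, 22.4 and 19.4 FPKM in LY19WT. Replicate 3 of LY19Y646F, where GINS2 shared no row with a protein-coding gene, was also above every LY19WT library. The difference was 1.59 on the log2 scale (exact permutation p = 0.10, two-sided, the smallest possible), and with merged rows counted for every gene they name the limma adjusted p was 0.0014. The rows span chr16:85705156-85784735 on hg19. In the authors' deposited table GINS2 stood at 72.5 FPKM in LY19Y646F and 23.6 FPKM in LY19WT. GINS3 shared its row with NDRG4 and SETD6 in LY19Y646F replicate 1 and was listed at 0, 32.2 and 32.9 FPKM in LY19Y646F, against 28.7, 29.7 and 30.1 FPKM in LY19WT. Apart from that library, the one listed at 0, its values were similar in the lines, and the authors' deposited table gives 34.9 FPKM in LY19Y646F and 34.2 FPKM in LY19WT.

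PCNA, the clamp that holds polymerases on DNA, was the most abundant tested member over the 6 libraries and was higher in LY19Y646F. It had 652, 578 and 570 FPKM in LY19Y646F, against 338, 283 and 299 FPKM in LY19WT. The lines were far apart, with means of 600 ± 45.2 FPKM in LY19Y646F and 307 ± 28.0 FPKM in LY19WT (SD, n = 3 each). PCNA was 0.97 higher on the log2 scale (SE 0.10, limma adjusted p = 0.0015). Its rows span chr20:5094639-5107272 on hg19 and also name a small non-coding Y RNA in all 6 libraries.

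None of the 4 tested subunits of RFC, the complex that loads PCNA, passed the test. RFC1, the large subunit, had 23.2, 31.7 and 32.2 FPKM in LY19Y646F, against 35.3, 40.6 and 44.4 FPKM in LY19WT. RFC3, a small subunit, had 102, 147 and 121 FPKM in LY19Y646F, against 87.6, 79.4 and 97.9 FPKM in LY19WT. The lines did not overlap for either gene, and the order was opposite, with RFC1 lower and RFC3 higher in all LY19Y646F libraries. The change of RFC1 was -0.46 (limma adjusted p = 0.098, or 0.031 with replicate number as a block), and that of RFC3 was 0.47 (limma adjusted p = 0.087, or 0.036 without LY19Y646F replicate 1).

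RFC2 was listed at 0, 86.4 and 99.7 FPKM in LY19Y646F, against 89.9, 97.5 and 92.0 FPKM in LY19WT. RFC5 was listed at 38.3, 0 and 32.1 FPKM in LY19Y646F, against 40.2, 38.6 and 0 FPKM in LY19WT. Apart from the libraries listed at 0, the values of both small subunits lay close together across the lines. RFC4 was listed at 0 in all 6 libraries, and no statement about its level is made.

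RPA coats single-stranded DNA at the fork, and none of its 3 subunits passed the test. RPA1, the large subunit, had 269, 337 and 350 FPKM in LY19Y646F, against 60.5, 137 and 226 FPKM in LY19WT. All LY19Y646F libraries were above all LY19WT libraries, which were widely spread, and the change of 1.35 had a limma adjusted p of 0.093. Without LY19WT replicate 1 the change was 0.84 (limma adjusted p = 0.089), and without LY19WT replicate 3 it was 1.79 (limma adjusted p = 0.041). In the authors' deposited table RPA1 stood at 189 FPKM in LY19Y646F and 170 FPKM in LY19WT. RPA2 averaged 92.4 ± 12.6 FPKM in LY19Y646F and 71.9 ± 2.15 FPKM in LY19WT (SD, n = 3 each), without overlap and with a limma adjusted p of 0.087, or 0.012 without LY19Y646F replicate 1. RPA3 averaged 158 ± 24.8 FPKM in LY19Y646F and 175 ± 8.09 FPKM in LY19WT (SD, n = 3 each), with overlap.

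**Figure D3:**
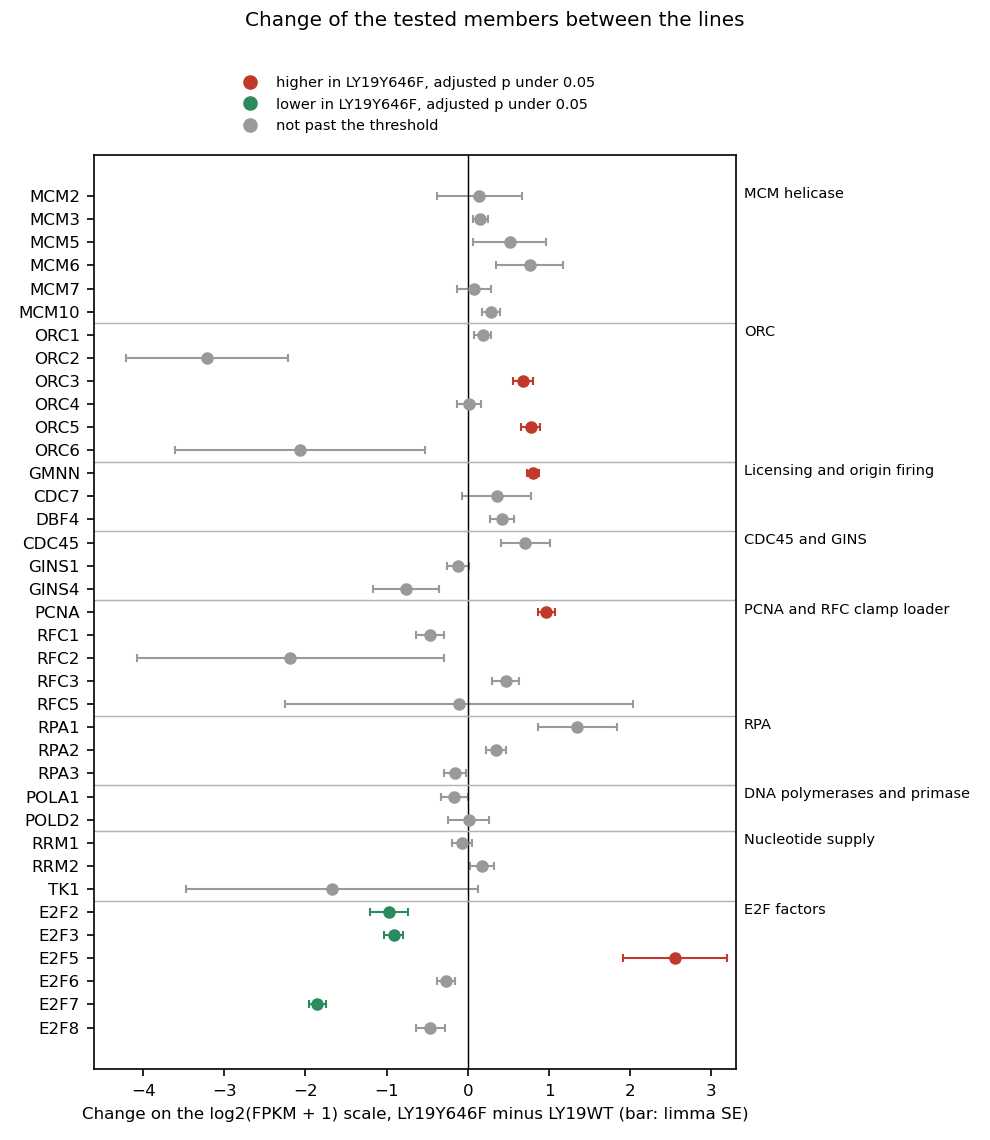
Change of each of the 37 tested members on the log2(FPKM + 1) scale, LY19Y646F minus LY19WT, with the limma SE as a bar, grouped by complex; red marks members called higher, green those called lower and grey those not past the threshold. The calls are ORC3, ORC5, GMNN, PCNA and E2F5 above 0 and E2F2, E2F3 and E2F7 below 0, and the widest bars belong to members with libraries listed at 0.

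Only 2 of the 9 polymerase and primase genes could be tested, and neither passed. POLA1, the catalytic subunit of the polymerase that starts each new strand, averaged 22.3 ± 3.99 FPKM in LY19Y646F and 25.0 ± 2.66 FPKM in LY19WT (SD, n = 3 each). POLD2, a subunit of polymerase delta, averaged 82.9 ± 19.8 FPKM in LY19Y646F and 82.4 ± 20.7 FPKM in LY19WT (SD, n = 3 each). Both overlapped between the lines, with limma adjusted p of 0.51 and 0.98.

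The other 7 shared rows with a neighbour, and for POLE2 and PRIM2 the shared row stood far above the row of the gene in the other libraries. PRIM1, the primase catalytic subunit, shared its row with NACA in all 6 libraries, and that row had 1767, 1705 and 1559 FPKM in LY19Y646F, against 1483, 1324 and 1491 FPKM in LY19WT. The lines did not overlap, and the difference of 0.23 had an exact permutation p of 0.10 (two-sided, the smallest possible). PRIM1 and NACA cannot be told apart in this row. POLE2, of polymerase epsilon, had 24.8, 31.4 and 26.7 FPKM in LY19Y646F, against 3522, 47.7 and 22.5 FPKM in LY19WT, where replicate 1 shared its row with the ribosomal protein gene RPS29. PRIM2, the other primase subunit, had 43.4, 52.6 and 37.1 FPKM in LY19Y646F, against 36.3, 35.6 and 184 FPKM in LY19WT, where replicate 3 shared its row with BAG2, KIAA1586 and ZNF451. The POLE2 libraries without such a row overlapped between the lines. In the authors' deposited table POLE2 stood at 31.2 FPKM in LY19Y646F and 44.6 FPKM in LY19WT. For PRIM2, every LY19Y646F library lay above LY19WT replicates 1 and 2, the closest at 37.1 against 36.3 FPKM. The authors' deposited table gives PRIM2 at 47.2 FPKM in LY19Y646F and 32.2 FPKM in LY19WT.

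POLD1, the catalytic subunit of polymerase delta, shared its row with SPIB, a B-cell transcription factor gene, in all 6 libraries. That row had 79.0, 27.0 and 24.5 FPKM in LY19Y646F, against 35.2, 18.5 and 17.3 FPKM in LY19WT, and the lines overlapped. POLD3, another delta subunit, had 19.9, 24.7 and 26.8 FPKM in LY19Y646F, against 27.1, 29.3 and 50.6 FPKM in LY19WT, where replicate 3 shared its row with RNF169. The lines did not overlap, and the difference of -0.52 had an exact permutation p of 0.10 (two-sided, the smallest possible). POLA2, the regulatory subunit beside POLA1, shared a row with CDC42EP2 in 5 libraries and had 29.1 to 43.2 FPKM in LY19Y646F and 36.0 to 62.2 FPKM in LY19WT. POLE, the catalytic subunit of polymerase epsilon, shared a row with CHFR, GOLGA3 and ZNF605 in all 3 LY19WT libraries and in no LY19Y646F library. It had 11.9 to 29.3 FPKM in LY19Y646F and 14.5 to 24.1 FPKM in LY19WT. In these rows a difference between the lines cannot be told apart from the shared rows. The authors' deposited table gives POLE at 53.1 FPKM in LY19Y646F and 51.8 FPKM in LY19WT, a difference of 0.04 on the log2 scale.

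Neither enzyme of Okazaki fragment maturation could be tested. FEN1, the flap endonuclease, shared its row with FADS2 in all 6 libraries, and that row had 98.0, 102 and 114 FPKM in LY19Y646F, against 222, 169 and 139 FPKM in LY19WT. All LY19Y646F libraries were below all LY19WT libraries, and the difference of -0.73 had an exact permutation p of 0.10 (two-sided, the smallest possible). FEN1 and FADS2 cannot be told apart in this row. LIG1, the ligase that joins the fragments, shared a row with CARD8 or PLA2G4C in 2 libraries and had 57.4 to 77.9 FPKM in LY19Y646F and 60.1 to 90.4 FPKM in LY19WT. In the authors' deposited table LIG1 stood at 98.6 FPKM in LY19Y646F and 124 FPKM in LY19WT.

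The 3 members that supply nucleotides were all tested, and none passed. RRM1, the large subunit of ribonucleotide reductase, averaged 122 ± 12.2 FPKM in LY19Y646F and 127 ± 11.6 FPKM in LY19WT (SD, n = 3 each). RRM2, its S-phase small subunit, averaged 361 ± 57.6 FPKM in LY19Y646F and 317 ± 25.0 FPKM in LY19WT (SD, n = 3 each), and its row also named C2orf48 in all 6 libraries. Both genes overlapped between the lines, with limma adjusted p of 0.70 and 0.42. TK1, the thymidine kinase of the salvage pathway, was listed at 114, 0 and 28.5 FPKM in LY19Y646F, against 70.2, 53.0 and 27.7 FPKM in LY19WT. In the library listed at 0, 6 rows without a gene name lay inside the TK1 interval, with 11.2 FPKM in all.

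Other genes of the pathway were taken from lists made by role, and the counts below stand beside 16.7% of all tested genes called higher and 16.5% called lower. The lists hold 6 to 19 tested genes each, apart from MKI67, which stands alone as a proliferation marker. Nothing is read from them as particular to a list. Of 26 other replication factors 19 were tested, with 2 higher, 3 lower and a median change of -0.04. TICRR, which brings CDC45 to origins, had 4.56, 4.44 and 4.26 FPKM in LY19Y646F, against 12.2, 12.1 and 11.7 FPKM in LY19WT. MTBP, its partner, had 9.91, 10.8 and 13.7 FPKM in LY19Y646F, against 19.8, 20.2 and 21.4 FPKM in LY19WT. The lines were separated for both genes, and on the log2 scale TICRR fell by 1.26 (limma adjusted p = 0.00051) and MTBP fell by 0.79 (limma adjusted p = 0.011). The topoisomerases, which relax DNA ahead of the fork, moved apart, as TOP1 was higher by 1.37 (limma adjusted p = 0.015) and TOP2A fell by 0.68 (limma adjusted p = 0.027).

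Of 14 other nucleotide supply enzymes 10 were tested, with 3 higher, 1 lower and a median of -0.21. RRM2B, the ribonucleotide reductase subunit used outside S phase, was higher by 2.33 (limma adjusted p = 9.5e-05), while RRM1 and RRM2 did not pass. SAMHD1, which breaks down deoxynucleotides, had 24.0, 25.3 and 24.5 FPKM in LY19Y646F, against 11.7, 12 and 12.2 FPKM in LY19WT. The lines were clearly separated, and SAMHD1 was higher by 0.98 (limma adjusted p = 0.00084). TYMS, which makes thymidylate, fell by 0.93 (limma adjusted p = 0.0032), and GMPS, of guanine nucleotide synthesis, was higher by 0.94 (limma adjusted p = 0.047).

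Of 13 E2F partners, pocket proteins and DREAM complex genes 10 were tested, with 1 higher, 5 lower and a median of -0.32. RB1, the pocket protein that restrains activator E2Fs, fell by 1.75 (limma adjusted p = 0.00091). RBL2, which encodes the pocket protein p130, had 8.30, 10.1 and 16.2 FPKM in LY19Y646F, against 22.3, 25.4 and 27.2 FPKM in LY19WT. FOXM1, a factor that drives genes of late cell-cycle phases, had 30.4, 31.7 and 30.6 FPKM in LY19Y646F, against 54.5, 71.8 and 68.4 FPKM in LY19WT. Both were below LY19WT in every LY19Y646F library, and RBL2 fell by 1.09 (limma adjusted p = 0.024) and FOXM1 fell by 1.04 (limma adjusted p = 0.0028). The 1 gene called higher was RBBP4, a histone-binding subunit, at 0.66 (limma adjusted p = 0.012).

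Of 12 G1/S cyclins and kinases 6 were tested, with 0 higher, 2 lower and a median of -0.66. CCNE2 had 34.9, 38.0 and 37.7 FPKM in LY19Y646F, against 66.3, 59.8 and 66.2 FPKM in LY19WT, and CCNE1 had 21.6, 22.3 and 23.3 FPKM in LY19Y646F, against 32.3, 31.7 and 34.7 FPKM in LY19WT. Both are E-type cyclins of S-phase entry, and all LY19Y646F libraries were below all LY19WT libraries. CCNE2 fell by 0.78 (limma adjusted p = 0.0022) and CCNE1 fell by 0.53 (limma adjusted p = 0.0080). Of 18 mitosis genes 15 were tested, with 1 higher, 3 lower and a median of -0.03. CCNB2, a mitotic cyclin, fell by 0.85 (limma adjusted p = 0.00062), BUB1, a spindle checkpoint kinase, fell by 0.65 (limma adjusted p = 0.013), and CENPF, a kinetochore protein, fell by 1.02 (limma adjusted p = 0.017). CDK1, the mitotic kinase, was higher by 0.58 (limma adjusted p = 0.029). MKI67, which encodes the proliferation marker Ki-67, had 44.5, 61.3 and 68.1 FPKM in LY19Y646F, against 82.0, 102 and 104 FPKM in LY19WT. It fell by 0.73 (limma adjusted p = 0.038), the opposite direction to PCNA, and the part of cell division rate in the results was not tested.

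**Figure D4:**
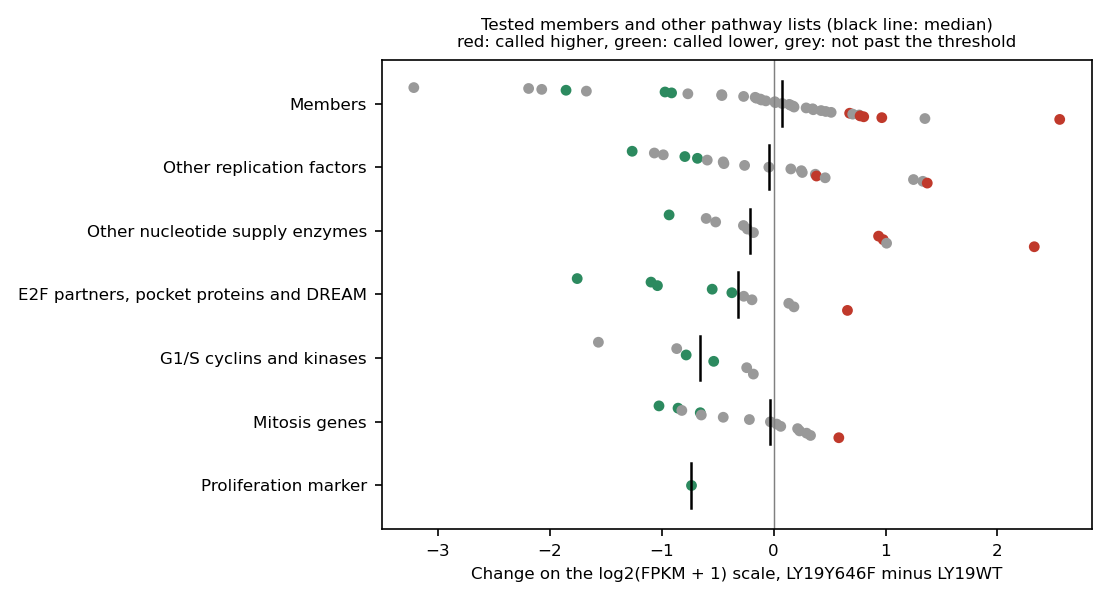
Change of each tested gene on the log2(FPKM + 1) scale, LY19Y646F minus LY19WT, for the members and the other pathway lists; each point is a gene, the black line is the list's median, red is called higher, green called lower and grey not past the threshold. The members' median is 0.08 (-0.03 with quantile normalization), while the lists of E2F partners and of G1/S cyclins and kinases have medians of -0.32 and -0.66.

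The authors' deposited table, which holds mean FPKM per line from Cuffdiff without a p-value, holds 39 of the 55 members, 31 of them tested above. On the same log2(FPKM + 1) scale, 28 of these 31 had the same direction in the authors' deposited table as in the library tables. The libraries are the same, so this is another processing of the data and not a second measurement. The 5 called members that the authors' deposited table holds (ORC3, ORC5, GMNN, E2F3 and E2F7) all had the same direction in it. It gives E2F7 at 2.90 FPKM in LY19Y646F and 14.7 FPKM in LY19WT, E2F3 at 15.6 FPKM in LY19Y646F and 29 FPKM in LY19WT, and GMNN at 170 FPKM in LY19Y646F and 105 FPKM in LY19WT. No value of PCNA, E2F2 or E2F5 from it was used here. The 3 members with the opposite direction in the authors' deposited table were MCM2 at -0.26, POLD2 at -0.53 and TK1 at 0.66, none of which passed the test.

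**Figure D5:**
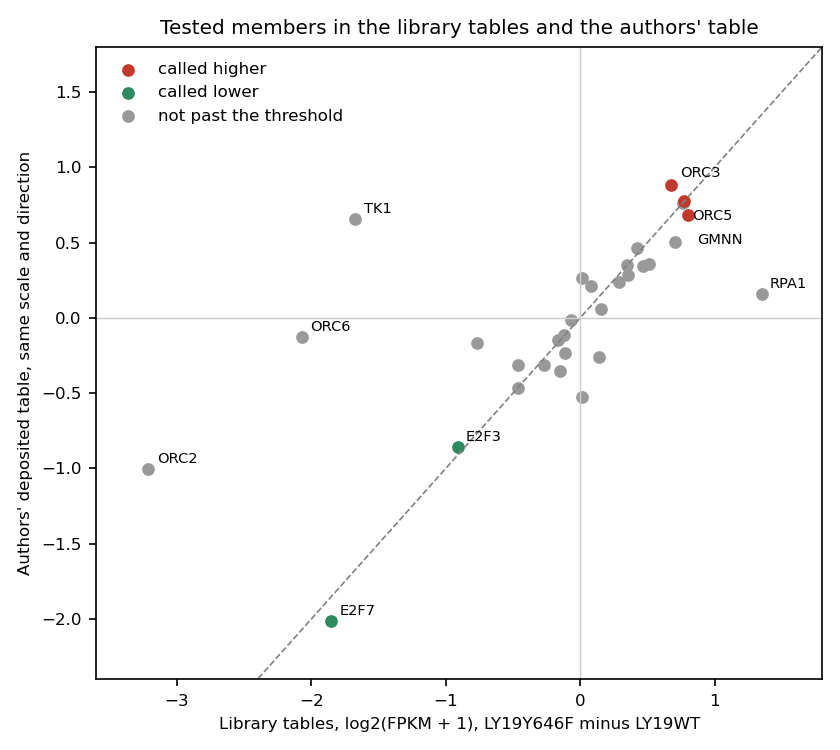
Change of the 31 tested members held by both sources, LY19Y646F minus LY19WT on the log2(FPKM + 1) scale, from the library tables (horizontal) and from the authors' deposited table (vertical), with the dashed line marking equal changes. The called members lie near the line, and TK1, ORC2, ORC6 and RPA1 lie farthest from it.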

How the data were processed

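Polyadenylated RNA of 6 libraries was prepared with a stranded kit, per the labels' protocols. The submitters' processing notes name the hg19 build, STAR 2.5.3a as aligner, Cufflinks 2.2.1 and Cuffdiff 2.2.1. Per the file headers, the deposited tables give FPKM per gene with a 95% interval and a status. FPKM is already scaled to each library's total by the authors. The authors' deposited comparison table also holds log2 fold changes.

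Rows were joined by gene symbol, and rows of a gene within a library were summed. A gene was dropped where any library had it together with another protein-coding gene (types from GENCODE) or in a failed row, which took out 8921 of 56539 symbols. Genes averaging at least 0.5 FPKM, 10705 in all, were tested in limma 3.58.1 (R 4.3.3) on log2(FPKM + 1), by lmFit and eBayes with a trend (two-sided, Benjamini-Hochberg adjustment, threshold 0.05), after a check on simulated data. Members left out were compared with an exact permutation test. No counting interval is given, as depth is unknown. Coordinates of rows are the outermost bounds over libraries, counted from 1.

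Same-numbered libraries of the lines deviated together (correlations across genes of 0.26, 0.10 and 0.13, against 0.0922 at most for other pairs), although only narrowly for replicate 2, and the labels do not say what the numbers mark. The reported tests have no replicate block, and blocked values stand beside results whose call they change. Alternatives covered the pseudocount, filter, scaling, variance model, replicate block, merged rows, values listed at 0, and each library left out.

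The members and lists were chosen with earlier results of these data known. Named are every called member, every untested member, all E2F factors and at most 4 called genes of each other list. The members without a call were named so that all 55 are accounted for.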

Additional observations from a re-analysis of the deposited data

How the results depend on the processing

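E2F3, E2F7, GMNN, ORC3, ORC5 and PCNA kept their call without each of the 6 libraries in turn, whereas E2F2 kept it in 1 and E2F5 in 2 of the 6. Library weights called 5769 of all 10705 tested genes, 2934 higher and 2835 lower. Under these weights 13 members were higher, and E2F2, E2F3, E2F7 and RFC1 were lower. Replicate number as a block called 5 members lower and changed no call of a member beyond those given above. Without 1 library, 2783 to 4064 of all 10705 tested genes were called, with 4 to 7 members higher and 2 to 3 lower. The members' median then ran from -0.02 to 0.19. Leaving a library out can only raise the number of genes without overlap. It was 20 to 24 for the members and 5598 to 6899 for all tested genes, against 5204 of all tested genes with all 6 libraries.

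No called member changed direction under any alternative that tested it. Uncalled members that did were MCM2 (-0.00373), MCM7 (-0.0394), ORC4 (-0.0344) and POLD2 (-0.130) with quantile normalization, ORC4 (-0.0319) and POLD2 (-0.0371) with equal upper quartiles, MCM2 (-0.316) with library weights, TK1 (0.284) with values listed at 0 set to missing, and MCM2 (-0.26), POLD2 (-0.53) and TK1 (0.66) in the authors' deposited table. The cause was not tested. With each library left out, changes ran from -0.18 to 0.66 for MCM2, -0.0754 to 0.23 for MCM7, -0.0678 to 0.12 for ORC4, -0.17 to 0.20 for POLD2, -1.89 to 1.61 for RFC5, -0.15 to 0.0165 for RRM1, -0.0226 to 0.64 for CDC7 and -3.14 to 0.28 for TK1. Merged rows and values listed at 0 limit the polymerase, RFC and ORC results, and 3 libraries per line limit the precision.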
